A study of Mus musculus with 7 samples.

Results

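The nuclear genes that encode the subunits of the 5 complexes of oxidative phosphorylation (OXPHOS) were compared between adult and embryonic mouse cerebral cortex. Members were taken from the gene table by symbol, namely Nduf genes of the a, b, c, s and v series, Sdha to Sdhd, Uqcr genes, Cox4 to Cox8 genes and Atp5 genes, with symbols that end in -ps or -rs left out. The rule found 86 of the 36666 genes in the table. Of these, 35 belong to complex I, 4 to complex II, 8 to complex III, 19 to complex IV and 15 to complex V, and 5 match by symbol but were set apart, as they are not standard subunits of a complex. The 3 adult samples came from the cerebral cortex of young adult C57BL/6 mice, and the 4 embryonic samples from the cerebral cortex of C57BL/6 embryos at day 17 of gestation. No treatment and no genetic change is named for either group, the adult age is given only as young adult, and whether 1 sample is 1 animal is not stated. Total RNA was extracted with trizol and turned into libraries with an mRNA kit for sequencing. The adult samples held 22733921 to 23606266 reads in genes and the embryonic samples 18444002 to 22575586.

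Oxidative phosphorylation is carried out in the inner mitochondrial membrane. Complex I takes electrons from NADH and complex II takes them from succinate, complex III passes them to cytochrome c, and complex IV hands them to oxygen. The protons moved by complexes I, III and IV drive complex V, the ATP synthase. Most subunits are encoded in the nucleus and imported, a few core subunits are encoded by mitochondrial DNA, and neurons of the adult brain draw most of their ATP from this pathway. Several complex IV subunits exist in a general form and in a tissue form encoded by another gene, and the c subunit of complex V is encoded by 3 genes with the same mature product.

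Of the 86 members, 84 had enough reads to be tested, 74 rose in adult cortex and none fell. A gene was called at an adjusted p under 0.05 in limma, which called 69.7% of the 22828 genes tested, 35.8% as higher and 33.9% as lower in adult cortex. The other 10 members that were tested also had a difference above 0. On the deposited scale all 3 adult values lay above all 4 embryonic values in 73 of the 84 members, against 35.7% of all genes tested. Each difference is the adult mean less the embryonic mean of the variance-stabilized values, which read almost as log2 levels where reads are many. The median difference was 0.64 over the 84 members, with quartiles of 0.50 and 0.95, against 0.03 over all genes tested, with quartiles of -0.69 and 0.90. The filter asked for reads in at least 4 of the 7 samples, which a gene read in embryonic cortex alone could reach and a gene read in adult cortex alone could not. Since some tissue forms had few reads, the 73 subunit genes without the tissue forms and the symbol matches were also counted. Of these, 67 rose, with a median of 0.63. In tissue RNA, a larger share of cells rich in mitochondria and more RNA per cell cannot be told apart.

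**Figure D1:**
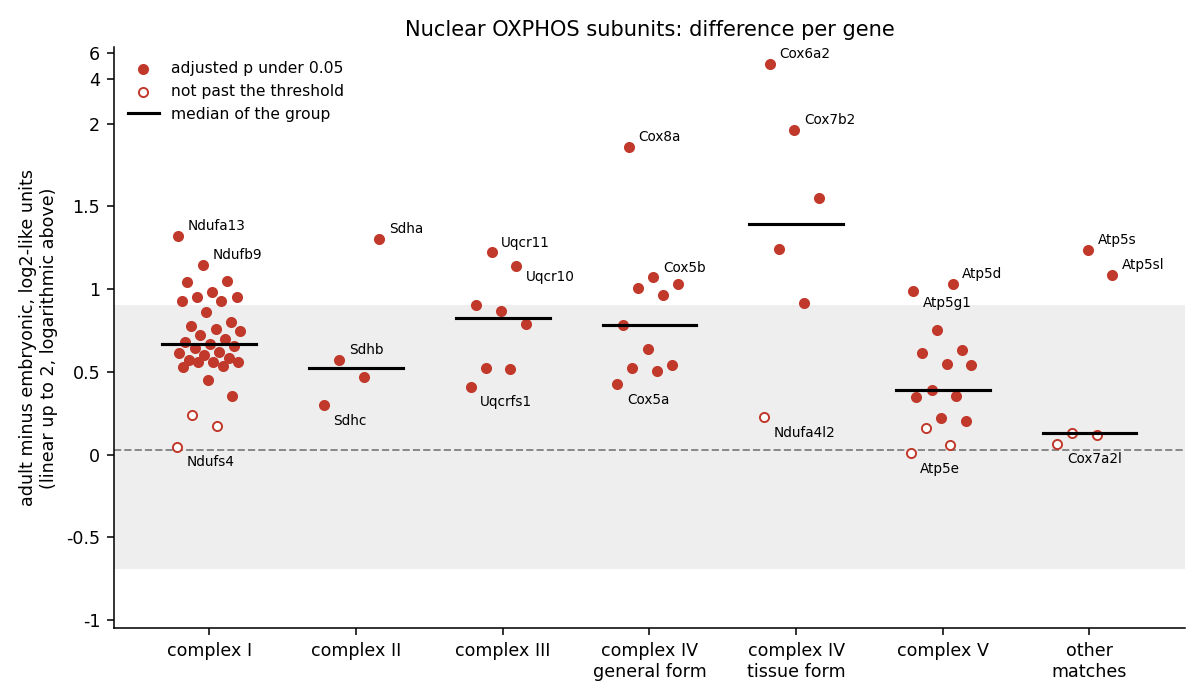
Difference of each tested member between 3 adult and 4 embryonic samples, in log2-like units (linear up to 2, logarithmic above), by complex. Filled points passed the threshold and open points did not, black bars are group medians, and the dashed line and grey band are the median and the quartile range of all 22828 genes tested. The medians are 0.67 for complex I, 0.52 for complex II, 0.83 for complex III, 0.78 and 1.40 for the general and tissue forms of complex IV, and 0.39 for complex V.

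Levels are reads per 1000000 reads in genes (CPM), and values of single samples follow the replicate numbers. The size of the difference varied among the complexes. The median difference was 0.97 for complex IV, 0.83 for complex III, 0.67 for complex I, 0.52 for complex II and 0.39 for complex V. The value for complex IV includes 6 tissue forms at low levels, and over its 11 general forms it was 0.78, below that of complex III. Summed over its genes, complex IV had 1447, 1634 and 1757 CPM in adult replicates 1 to 3, against 808, 879, 963 and 814 CPM in embryonic replicates 1 to 4. Complex V had 2624, 2769 and 2802 CPM in adult cortex, against 1927, 1986, 2159 and 1933 CPM in embryonic cortex. The groups did not overlap in the sum of any complex. Whether the complexes differ from each other in their change was not tested.

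**Figure D2:**
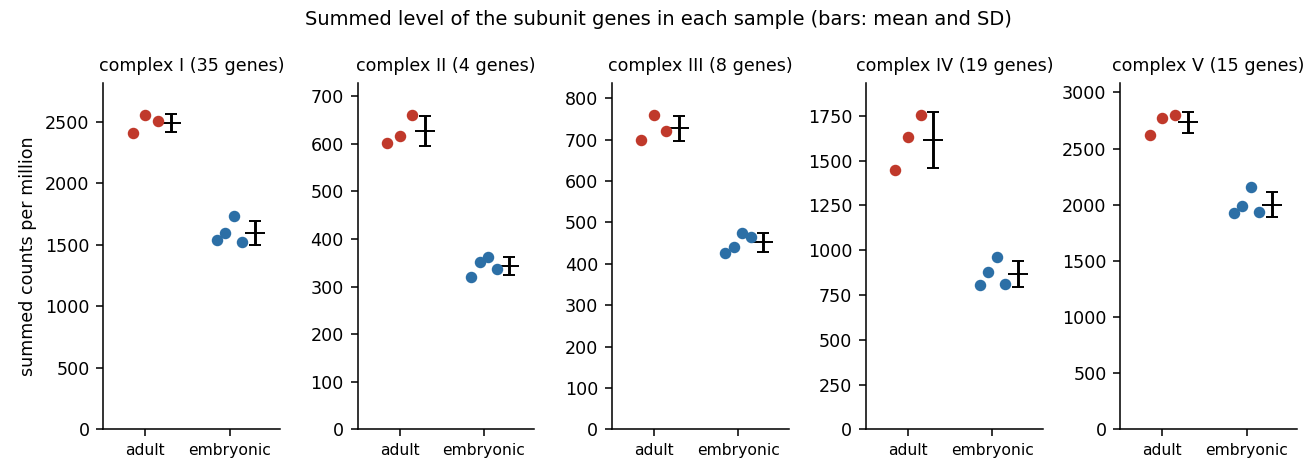
Summed CPM of the genes of each complex in each of the 3 adult (left) and 4 embryonic (right) samples, with the mean and SD beside the points. Every adult sum is above every embryonic sum, from 601, 616 and 661 CPM against 320.4, 352, 363 and 337 CPM for complex II to 2624, 2769 and 2802 CPM against 1927, 1986, 2159 and 1933 CPM for complex V.

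Of the 35 complex I genes, 32 rose and none fell. The genes encode the peripheral arm, which oxidises NADH, and the nuclear part of the membrane arm, which pumps protons. In the peripheral arm 14 of 16 rose, with a median difference of 0.66, and in the membrane arm 18 of 19, with a median of 0.75. All 7 core subunits rose, by a median of 0.72, and 25 of the 28 accessory subunits rose, with a median of 0.65 over the 28.

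The core subunits with the largest differences carry iron-sulfur clusters near the quinone site. Ndufs8 had 59.9, 72.6 and 66.2 CPM in adult cortex, against 30.9, 34, 37.4 and 31.7 CPM in embryonic cortex, a difference of 1.05 ± 0.10 (SE, limma adjusted p = 2.50e-07). Ndufs7 had 63.5, 80.9 and 72.6 CPM in adult cortex, against 37, 39, 42.2 and 34.8 CPM in embryonic cortex, a difference of 0.98 ± 0.10 (SE, limma adjusted p = 7.79e-07). In both genes the lowest adult sample was well above the highest embryonic sample. Ndufv1, which holds the flavin that accepts electrons from NADH, averaged 138 ± 8.99 CPM in adult and 88.3 ± 8.12 CPM in embryonic cortex (SD, n = 3 and n = 4). Ndufs1, the largest iron-sulfur subunit, averaged 123 ± 5.39 CPM in adult and 71.1 ± 3.79 CPM in embryonic cortex (SD, n = 3 and n = 4).

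The complex I genes with the largest differences were accessory subunits. Ndufa13, a subunit at the junction of the arms that is also known as GRIM-19, had 115, 117 and 99 CPM in adult cortex, against 43.5, 45.3, 50.5 and 45.4 CPM in embryonic cortex, a difference of 1.32 ± 0.09 (SE, limma adjusted p = 7.57e-09). Ndufb9, a membrane arm subunit, had 139.9, 141 and 141 CPM in adult cortex, against 63.5, 68.4, 72.7 and 63.6 CPM in embryonic cortex, a difference of 1.15 ± 0.08 (SE, limma adjusted p = 8.70e-09). The 3 adult values of Ndufb9 were nearly equal, and neither gene showed an overlap of the groups.

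The smallest differences that still passed were those of Ndufb7 and Ndufa2. Ndufb7, a membrane arm subunit, had 58.2, 70.7 and 60.9 CPM in adult cortex, against 52.2, 56, 54.9 and 46.1 CPM in embryonic cortex, a difference of 0.35 ± 0.10 (SE, limma adjusted p = 0.00506). Ndufa2, a peripheral arm subunit, had 45, 59.5 and 61.8 CPM in adult cortex, against 41.4, 44.7, 49.4 and 35.3 CPM in embryonic cortex, a difference of 0.45 ± 0.13 (SE, limma adjusted p = 0.00658). The lowest adult value of Ndufa2, that of replicate 1, lay inside the embryonic range, and the groups of Ndufb7 were close to each other without overlap. Neither passed when samples were centred on their medians, at 0.17 for Ndufb7 and 0.27 for Ndufa2 (limma adjusted p = 0.0749).

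The other 3 accessory genes of complex I did not pass the test. Ndufs4, a peripheral arm subunit whose loss in mice gives a model of Leigh syndrome, had 35.1, 35.2 and 40.7 CPM in adult cortex, against 37.5, 35.5, 39.3 and 39.2 CPM in embryonic cortex, a difference of 0.05 ± 0.08 (SE, limma adjusted p = 0.627). Ndufa7, of the same arm, had 36.3, 39.8 and 35.5 CPM in adult cortex, against 34.7, 36.4, 34.9 and 33.5 CPM in embryonic cortex, a difference of 0.17 ± 0.08 (SE, limma adjusted p = 0.0745). Ndufc2, of the membrane arm, had 67.9, 56.1 and 44.6 CPM in adult cortex, against 47.5, 48.3, 53 and 49.6 CPM in embryonic cortex, a difference of 0.24 ± 0.12 (SE, limma adjusted p = 0.0781). The CPM of the groups overlapped in all 3 genes, although those of Ndufa7 lay apart on the deposited scale. In Ndufc2 adult replicate 3 was the lowest of the 7 samples and adult replicate 1 the highest, and without adult replicate 3 the difference was 0.40 (limma adjusted p = 0.00319).

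All 4 genes of complex II, succinate dehydrogenase, rose. This complex is also the enzyme of the tricarboxylic acid (TCA) cycle that oxidises succinate, and it has no subunit encoded by mitochondrial DNA. Sdha, the flavoprotein that binds succinate, had 382, 386 and 438 CPM in adult cortex, against 162, 175, 178 and 174 CPM in embryonic cortex, a difference of 1.30 ± 0.07 (SE, limma adjusted p = 1.96e-09). Sdhb, the iron-sulfur subunit, had 109, 113 and 108 CPM in adult cortex, against 74.3, 82.3, 84 and 73 CPM in embryonic cortex, a difference of 0.57 ± 0.08 (SE, limma adjusted p = 1.76e-05). No adult sample of either gene came near the embryonic range.

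The membrane anchors of complex II had smaller differences. Sdhd had 59.2, 61.6 and 63.9 CPM in adult cortex, against 41.5, 47.7, 51.5 and 47.4 CPM in embryonic cortex, a difference of 0.47 ± 0.09 (SE, limma adjusted p = 0.000235). Sdhc had 51.7, 54.7 and 51.8 CPM in adult cortex, against 42.8, 46.7, 48.8 and 43.4 CPM in embryonic cortex, a difference of 0.30 ± 0.08 (SE, limma adjusted p = 0.00474). The groups did not overlap in either gene. Centred on the sample medians, Sdhc no longer passed, at 0.12 (limma adjusted p = 0.216).

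All 8 genes of complex III, the cytochrome bc1 complex, rose, and none of their groups overlapped. The 5 small subunits had a median difference of 0.91. Uqcr11 had 48.6, 62.4 and 60.7 CPM in adult cortex, against 23.4, 24.9, 26.3 and 27.2 CPM in embryonic cortex, a difference of 1.22 ± 0.10 (SE, limma adjusted p = 8.50e-08). Uqcr10 had 70.4, 91.8 and 84 CPM in adult cortex, against 37.6, 36.6, 45.5 and 36.1 CPM in embryonic cortex, a difference of 1.14 ± 0.11 (SE, limma adjusted p = 4.23e-07). The hinge protein gene Uqcrh, which helps cytochrome c bind, had 59.6, 61.2 and 65.5 CPM in adult cortex, against 47, 42.9, 47.5 and 45.9 CPM in embryonic cortex, a difference of 0.52 ± 0.08 (SE, limma adjusted p = 3.81e-05). The adult values were about 2 times the embryonic ones in Uqcr11 and Uqcr10 and were closer to them in Uqcrh.

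The Rieske protein had the smallest difference of complex III. Uqcrfs1, which encodes this iron-sulfur subunit, had 75.6, 73.6 and 68.2 CPM in adult cortex, against 56.2, 55, 57 and 62.4 CPM in embryonic cortex, a difference of 0.41 ± 0.08 (SE, limma adjusted p = 0.000286). The core proteins, which line the matrix side, averaged 193 ± 14.5 CPM in adult and 111 ± 6.21 CPM in embryonic cortex for Uqcrc1 and 141 ± 7.25 CPM in adult and 104 ± 7.92 CPM in embryonic cortex for Uqcrc2 (SD, n = 3 and n = 4). Their differences were 0.87 and 0.52.

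Complex IV, cytochrome c oxidase, held the member with the largest difference and also general subunits with small ones. All 11 general forms rose, with a median difference of 0.78. Cox8a, a small subunit of the membrane part, had 239, 292 and 346 CPM in adult cortex, against 74.6, 97, 102 and 67 CPM in embryonic cortex, a difference of 1.86 ± 0.15 (SE, limma adjusted p = 6.81e-08). The lowest adult value of Cox8a was more than 2 times the highest embryonic one, and replicate 3 was the highest sample in both groups. Cox4i1, the subunit that binds ATP, had 298, 357 and 411 CPM in adult cortex, against 179, 206, 209 and 172 CPM in embryonic cortex, a difference of 0.97 ± 0.11 (SE, limma adjusted p = 2.43e-06). Cox6a1 had 228, 274 and 261 CPM in adult cortex, against 127, 139.9, 149 and 119 CPM in embryonic cortex, a difference of 1.01 ± 0.10 (SE, limma adjusted p = 3.59e-07). In both genes every adult sample was above every embryonic one, and adult replicate 1 was the lowest of its group.

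Other general forms changed by smaller amounts. Ndufa4, first assigned to complex I and now placed in complex IV, had 97.2, 104 and 109.6 CPM in adult cortex, against 60.6, 57.5, 71.1 and 66.1 CPM in embryonic cortex, a difference of 0.78 ± 0.09 (SE, limma adjusted p = 2.17e-06). Cox7b had 66.9, 77.2 and 89.4 CPM in adult cortex, against 47.5, 48.5, 58.6 and 55.7 CPM in embryonic cortex, a difference of 0.64 ± 0.11 (SE, limma adjusted p = 0.000105). Cox6b1, which faces the intermembrane space, had 121, 113 and 107 CPM in adult cortex, against 75.7, 84.3, 92.4 and 81.8 CPM in embryonic cortex, a difference of 0.53 ± 0.08 (SE, limma adjusted p = 6.44e-05). All 3 had non-overlapping groups.

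The general forms with the smallest differences were Cox7a2 and Cox5a. Cox7a2 had 87.1, 93.2 and 100.4 CPM in adult cortex, against 65.2, 65.3, 77.4 and 71.3 CPM in embryonic cortex, a difference of 0.50 ± 0.09 (SE, limma adjusted p = 0.000121). Cox5a had 46.1, 53.1 and 50.4 CPM in adult cortex, against 35.9, 36.9, 39.6 and 44.5 CPM in embryonic cortex, a difference of 0.43 ± 0.09 (SE, limma adjusted p = 0.000878). Cox5b, which binds zinc, differed by 1.07 and averaged 107 ± 12.6 CPM in adult and 53.6 ± 7.33 CPM in embryonic cortex (SD, n = 3 and n = 4), while a near-identical copy, Gm11273, had 189.7 CPM in adult and 92.8 CPM in embryonic cortex. Reads of Cox5b and of that copy cannot be told apart with certainty.

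The promoters of the general and tissue forms are shown because the forms of a subunit stood at very unlike levels in cortex. Each sequence is the 250 bases before the annotated start in RefSeq, build GRCm38.p6, written from 5′ to 3′ on the strand of the gene. Capitals mark letters that match 1 of the 6 motifs searched on both strands. These were GCGCA, any letter, then GCGC for nuclear respiratory factor 1 (NRF1), CCGGAAG for ETS factors such as GABP, AAGATGGC for YY1, TCAAGGTCA for estrogen-related receptors, CTA, any 4 letters, then TAG for MEF2, and GGGCGG for SP1. Cox8a lies at chr19:7217617-7217866, minus strand and Cox8b at chr7:140900447-140900696, minus strand. Cox7a2 lies at chr9:79759854-79760103, minus strand and Cox7a1 at chr7:30183921-30184170, plus strand. Cox6b1 lies at chr7:30626115-30626364, minus strand and Cox6b2 at chr7:4753095-4753344, minus strand. Cox6a1 lies at chr5:115348959-115349208, minus strand and Sdha, shown as the complex II gene with the largest difference, at chr13:74350241-74350490, minus strand.
Cox8a, general form: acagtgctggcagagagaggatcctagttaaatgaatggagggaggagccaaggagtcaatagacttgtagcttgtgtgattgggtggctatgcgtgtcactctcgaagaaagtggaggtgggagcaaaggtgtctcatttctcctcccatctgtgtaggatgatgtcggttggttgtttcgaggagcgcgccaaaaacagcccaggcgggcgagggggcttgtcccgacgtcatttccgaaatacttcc
Cox8b, tissue form: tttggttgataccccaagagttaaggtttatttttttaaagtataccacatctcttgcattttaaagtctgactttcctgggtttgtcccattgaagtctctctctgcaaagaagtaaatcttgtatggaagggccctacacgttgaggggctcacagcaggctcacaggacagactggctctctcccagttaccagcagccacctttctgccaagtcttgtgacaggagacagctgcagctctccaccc
Cox7a2, general form: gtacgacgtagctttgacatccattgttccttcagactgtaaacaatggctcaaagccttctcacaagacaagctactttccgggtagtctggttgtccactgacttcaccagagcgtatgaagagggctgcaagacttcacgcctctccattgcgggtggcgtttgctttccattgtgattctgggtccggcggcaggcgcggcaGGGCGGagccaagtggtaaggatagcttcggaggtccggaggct
Cox7a1, tissue form: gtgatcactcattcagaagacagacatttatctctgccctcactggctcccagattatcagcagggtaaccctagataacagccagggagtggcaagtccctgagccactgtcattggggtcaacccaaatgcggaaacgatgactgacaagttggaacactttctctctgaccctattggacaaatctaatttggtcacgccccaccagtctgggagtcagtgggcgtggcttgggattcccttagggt
Cox6b1, general form: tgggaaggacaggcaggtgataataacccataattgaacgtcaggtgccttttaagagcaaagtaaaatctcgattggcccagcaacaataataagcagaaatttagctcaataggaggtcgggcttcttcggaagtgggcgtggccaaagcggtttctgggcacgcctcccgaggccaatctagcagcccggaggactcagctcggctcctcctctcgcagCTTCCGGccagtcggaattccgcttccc
Cox6b2, tissue form: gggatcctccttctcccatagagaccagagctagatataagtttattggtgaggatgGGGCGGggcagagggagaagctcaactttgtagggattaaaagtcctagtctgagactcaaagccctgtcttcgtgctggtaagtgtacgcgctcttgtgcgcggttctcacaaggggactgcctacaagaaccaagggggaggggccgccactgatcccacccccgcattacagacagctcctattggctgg
Cox6a1, general form: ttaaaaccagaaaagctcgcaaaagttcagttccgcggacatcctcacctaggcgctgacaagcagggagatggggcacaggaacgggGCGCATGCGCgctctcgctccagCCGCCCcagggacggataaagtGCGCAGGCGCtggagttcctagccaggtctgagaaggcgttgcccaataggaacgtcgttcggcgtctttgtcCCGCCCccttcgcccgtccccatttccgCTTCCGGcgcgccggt
Sdha, complex II: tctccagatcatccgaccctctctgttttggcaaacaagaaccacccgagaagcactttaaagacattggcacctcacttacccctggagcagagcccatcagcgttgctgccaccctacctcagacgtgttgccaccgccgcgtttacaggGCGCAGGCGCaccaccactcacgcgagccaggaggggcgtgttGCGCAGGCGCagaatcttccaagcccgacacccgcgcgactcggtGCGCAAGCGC

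Motifs were counted in the window from 250 bases before to 50 after the start, 1 window a gene, which the RefSeq table held for 69 of the 86 members and for 27025 genes in all. The NRF1 motif was found in 16 of 69 members (23.2%), against 4.78% of all windows. The ETS motif was found in 15 members (21.7%), against 9.12% of all windows, and the YY1 motif in 10 members (14.5%), against 2.88%. The SP1 motif was found in 28 members (40.6%), against 35.9% of all windows. The estrogen-related receptor motif was found in 2 members, Sdhd and Atp5g3, and in 0.407% of all windows, and the MEF2 motif in 1 member, Cox5b, and in 3.70% of all windows. In 1 member window matches of different motifs shared letters. Counted by complex, at least 1 of the NRF1, ETS and YY1 motifs was found in 17 of 31 complex I genes, 3 of 3 of complex II, 3 of 5 of complex III, 9 of 14 of complex V and 3 of 9 general forms of complex IV. Of all windows, 15.2% held at least 1 of the 3. None of the 4 tissue forms with a window held them, which is too few windows to set against that share. Cox6a2 had no window. Sdha and Cox6a1 held the NRF1 motif more than once. The window of Cox8a held the ETS motif across the start and after it, and neither match lies whole within the printed bases. A match describes letters in a window, not a bound site.

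The tissue forms of complex IV were present at a small fraction of their general forms, and 5 of the 6 that could be tested rose. Cox6a2, the form of heart and skeletal muscle, which is also found in parvalbumin interneurons, had 122, 138 and 129 reads in adult replicates, against 0, 0, 5 and 3 reads in embryonic replicates. This was 5.32, 5.85 and 5.67 CPM in adult cortex, against 0, 0, 0.235 and 0.139 CPM in embryonic cortex, a difference of 5.06 ± 0.57 (SE, limma adjusted p = 2.13e-06). The size of that difference depends on the value given to the embryonic samples without reads. The gene was close to absent in embryonic cortex and present at even levels in all 3 adult samples. Itgad, which overlaps Cox6a2 on the opposite strand, had 0.334 CPM in adult and 0.0959 CPM in embryonic cortex. Per length of transcript, Cox6a2 stood at 1.86% ± 0.0905 in adult and 0.0576% ± 0.068 in embryonic cortex of the level of Cox6a1 (SD, n = 3 and n = 4).

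Cox7a1, the heart and muscle form that is also abundant in brown fat, had 1.75, 1.53 and 1.54 CPM in adult cortex, against 0.542, 0.443, 0.894 and 0.416 CPM in embryonic cortex, a difference of 1.24 ± 0.23 (SE, limma adjusted p = 0.000296). Cox6b2, the testis form, had 2.57, 2.88 and 2.6 CPM in adult cortex, against 0.596, 1.11, 0.988 and 0.462 CPM in embryonic cortex, a difference of 1.55 ± 0.23 (SE, limma adjusted p = 4.24e-05). Cox4i2, a form induced by low oxygen and known from lung, had 1.48, 1.14 and 1.23 CPM in adult cortex, against 0.434, 0.753, 0.706 and 0.508 CPM in embryonic cortex, a difference of 0.92 ± 0.22 (SE, limma adjusted p = 0.00230). All 3 had non-overlapping groups at levels under 3 CPM.

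The remaining tissue forms were close to the limit of detection. Cox7b2, a testis form, had 2, 5 and 4 reads in adult and 0, 0, 1 and 0 reads in embryonic replicates, and passed the filter through the adult reads and 1 embryonic read. Its fitted difference of 1.96 (limma adjusted p = 0.00664) therefore rests on very few reads. Cox8b, the heart and muscle form, had 27, 9 and 10 reads in adult replicates and none in the 4 embryonic replicates, and was not tested. Adult replicate 1 held more than the other adult replicates together. Against a floor of 3 reads over the embryonic group, which is 0.0358 CPM, its adult level of 0.664 CPM was at least 18.6-fold higher. Without adult replicate 1, the other 19 adult reads gave 0.410 CPM, at least 11.5-fold higher. Without the filter on low values, limma gave Cox8b a difference of 3.61 (limma adjusted p = 4.91e-06), which depends on the value given to samples without reads and is no bound. Cox8c, the testis form, had no read in any of the 7 samples. Ndufa4l2, a form induced by low oxygen and known from pericytes, had 2.53, 2.63 and 1.63 CPM in adult cortex, against 2.11, 2.08, 1.74 and 1.89 CPM in embryonic cortex, a difference of 0.23 ± 0.18 (SE, limma adjusted p = 0.280). Its groups overlapped, and adult replicate 3 was the lowest of the 7 samples. Without adult replicate 3 the difference was 0.41 (limma adjusted p = 0.0491).

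The balance within each isoform pair was compared as the log2 ratio of reads, with 0.5 reads added to each count, over 11 pairs. With 3 against 4 samples, the smallest p of the exact two-sided permutation test is 0.0571, or 0.0786 after adjustment over the 11 pairs, so no pair could pass 0.05. Cox6a2 over Cox6a1 had log2 ratios of -5.41, -5.54 and -5.52 in adult samples and -12.19, -12.62, -9.17 and -9.53 in embryonic samples, a difference of 5.39. The ratio was higher in every adult sample, and the embryonic ratios rest on 0 to 5 reads of Cox6a2. Cox6b2 over Cox6b1 had -5.54, -5.28 and -5.36 in adult and -6.92, -6.22, -6.51 and -7.40 in embryonic samples, a difference of 1.37. Cox7a1 over Cox7a2 had -5.62, -5.91 and -6.01 in adult and -6.84, -7.13, -6.40 and -7.34 in embryonic samples, a difference of 1.08. In these pairs the tissue form gained on the general form in all 3 adult samples, with the smallest p the design allows. Cox7b2 over Cox7b and Cox8b over Cox8a differed by 1.88 and 2.88, also without overlap, but these sizes depend on the reads added: with 1 read they were 1.21 and 1.94. The difference of Cox6a2 over Cox6a1 depended on it too, at 4.81 with 1 read and 4.05 with the deposited values.

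Cox4i2 over Cox4i1 and Ndufa4l2 over Ndufa4 did not separate the groups. Cox4i2 over Cox4i1 had log2 ratios of -7.63, -8.26 and -8.36 in adult and -8.60, -8.05, -8.17 and -8.33 in embryonic samples, a difference of 0.21 (exact two-sided permutation p = 0.514). Both genes rose, and their ratio changed sign without adult replicate 1, at -0.02, and on the deposited scale, at -0.05. Ndufa4l2 over Ndufa4 had -5.25, -5.30 and -6.05 in adult and -4.82, -4.77, -5.33 and -5.11 in embryonic samples, a difference of -0.53 (exact two-sided permutation p = 0.171), and -0.27 without adult replicate 3. Whether reads of Shmt2 enter the ratio of Ndufa4l2 over Ndufa4 was not tested.

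**Figure D3:**
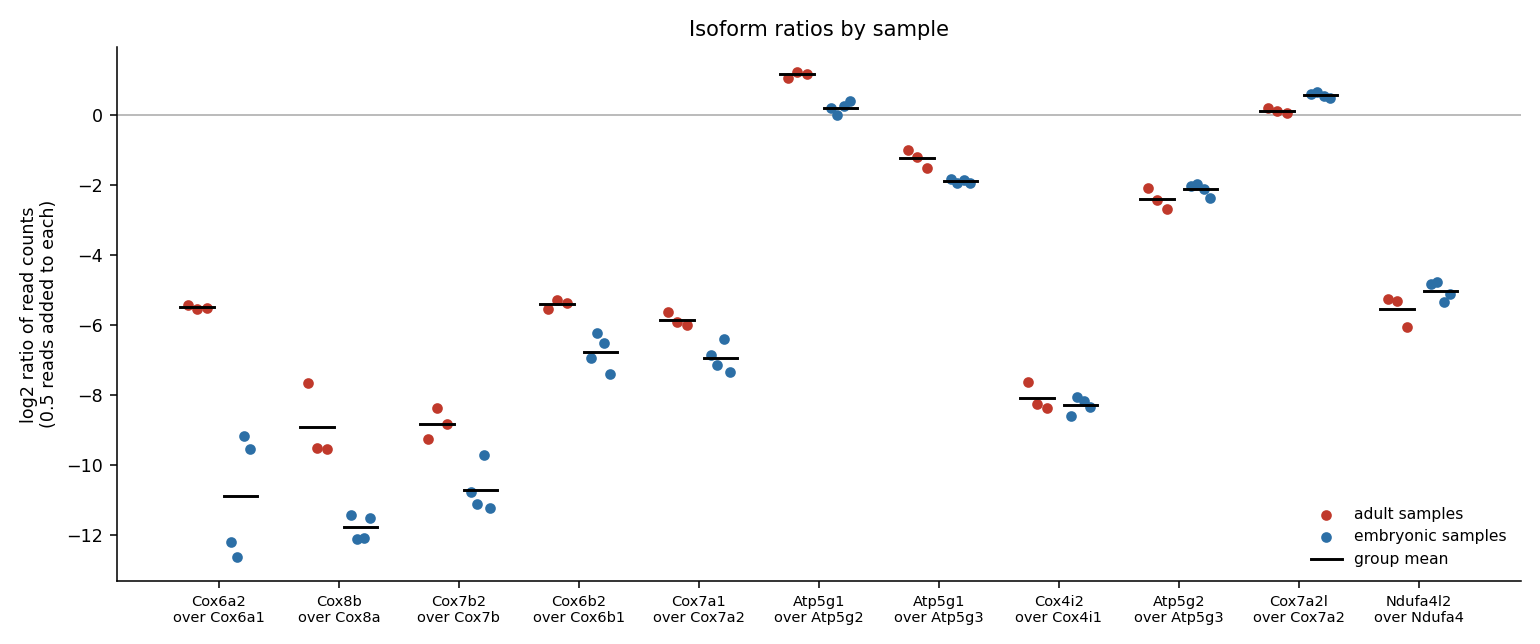
Log2 ratio of reads of 2 isoform genes, with 0.5 reads added to each, in each of the 3 adult (left, red) and 4 embryonic (right, blue) samples for 11 pairs, with group means as bars. The Cox6a2 ratio lies between -5.54 and -5.41 in adult and between -12.62 and -9.17 in embryonic samples. The groups overlap in Cox4i2 over Cox4i1, Ndufa4l2 over Ndufa4 and Atp5g2 over Atp5g3.

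Marker genes of cell types known for the tissue forms were read beside these results. Of all genes tested, 35.8% were called higher and 33.9% lower in adult cortex. Of the 7 markers of parvalbumin interneurons all rose, with summed levels of 1016 to 1161 CPM in adult, against 190.2 to 208 CPM in embryonic samples, and Pvalb itself averaged 47.3 ± 6.34 CPM in adult and 0.0459 ± 0.0377 CPM in embryonic cortex (SD, n = 3 and n = 4). Of 14 markers of skeletal and cardiac muscle, 8 of 13 tested rose and none fell, with sums of 61 to 74.7 CPM in adult, against 9.8 to 11.4 CPM in embryonic samples. Most of that sum was Myh7 and Myh6, while the muscle creatine kinase gene Ckm averaged 0.158 ± 0.106 CPM in adult and 0.0595 ± 0.0223 CPM in embryonic cortex (SD, n = 3 and n = 4) and Myog had no adult read. Of 5 brown fat markers, Cidea and Ppara rose, the defining gene Ucp1 fell to 0, 0.0424 and 0.132 CPM in adult, against 0.488, 0.354, 0.329 and 0.277 CPM in embryonic cortex, and Adipoq had no read in any sample. Of 10 pericyte markers, a list that holds Ndufa4l2 itself, 5 rose and 4 fell, with sums of 245 to 278 CPM in adult, against 181 to 209 CPM in embryonic samples. The part of these cells in the isoform results was not tested.

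Complex V, the ATP synthase, had 12 of 15 genes that rose, with the lowest median of the 5 complexes. In the F1 part, which makes ATP, 4 of 5 genes rose. Atp5b, the catalytic beta subunit, had 831, 868 and 939 CPM in adult cortex, against 615, 630.3, 701 and 604 CPM in embryonic cortex, a difference of 0.55 ± 0.08 (SE, limma adjusted p = 2.60e-05). Atp5a1, the alpha subunit, had 759, 763 and 743 CPM in adult cortex, against 503, 531, 552 and 512 CPM in embryonic cortex, a difference of 0.61 ± 0.07 (SE, limma adjusted p = 2.22e-06). Atp5d, the delta subunit of the central stalk, had 165, 194 and 171 CPM in adult cortex, against 89.8, 90.8, 97 and 86.5 CPM in embryonic cortex, a difference of 1.03 ± 0.08 (SE, limma adjusted p = 5.48e-08). All 3 separated the groups, and Atp5d had the largest difference of the complex.

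Of the other central stalk genes, Atp5c1 rose and Atp5e did not pass. Atp5c1, the gamma subunit of the central stalk, averaged 90.4 ± 3.84 CPM in adult and 73.1 ± 4.81 CPM in embryonic cortex (SD, n = 3 and n = 4), a difference of 0.39. Atp5e, the epsilon subunit of the central stalk, had 53.8, 66.6 and 66.7 CPM in adult cortex, against 64.9, 68.6, 74.2 and 55.9 CPM in embryonic cortex, a difference of 0.01 ± 0.11 (SE, limma adjusted p = 0.960). The adult values of Atp5e lay within the embryonic range except replicate 1, which was the lowest of the 7 samples. Its difference lay between -0.17 and 0.11 over the settings tried.

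Of the 3 genes for the c subunit, which forms the rotor ring, 2 rose. Atp5g1 had 66, 71.7 and 60.0 CPM in adult cortex, against 33.8, 34.5, 37.1 and 33.7 CPM in embryonic cortex, a difference of 0.99 ± 0.09 (SE, limma adjusted p = 1.52e-07). Atp5g3 had 133, 163 and 169 CPM in adult cortex, against 119, 132, 134 and 129 CPM in embryonic cortex, a difference of 0.35 ± 0.09 (SE, limma adjusted p = 0.00396). Atp5g2 had 31.5, 30.2 and 26.2 CPM in adult cortex, against 29.5, 34.2, 31.1 and 25.2 CPM in embryonic cortex, a difference of 0.06 ± 0.11 (SE, limma adjusted p = 0.666). Every adult sample of Atp5g1 was well above its embryonic range. In Atp5g3 adult replicate 1 lay inside the embryonic range in CPM, though not on the deposited scale, and the call was lost when samples were centred. The groups of Atp5g2 overlapped.

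The log2 ratio of Atp5g1 over Atp5g2 was 1.06, 1.25 and 1.19 in adult and 0.20, 0.01, 0.26 and 0.42 in embryonic samples, a difference of 0.95 with the smallest p the design allows. Atp5g1 over Atp5g3 differed by 0.66, also without overlap, and Atp5g2 over Atp5g3 by -0.29 (exact two-sided permutation p = 0.171). Per length of transcript, Atp5g1 stood at 51.7% ± 8.61 in adult and 32.4% ± 1.38 in embryonic cortex of the level of Atp5g3 (SD, n = 3 and n = 4).

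Genes of the peripheral stalk, which holds the head in place, passed in 4 of 4 cases, some by small margins. Atp5h averaged 66.9 ± 5.11 CPM in adult and 41.8 ± 3.85 CPM in embryonic cortex and Atp5j, also known as F6, 103 ± 7.06 CPM in adult and 75.1 ± 5.54 CPM in embryonic cortex (SD, n = 3 and n = 4). Atp5f1, the b subunit, had 113, 121 and 127 CPM in adult cortex, against 108, 101, 114 and 115 CPM in embryonic cortex, a difference of 0.22 ± 0.08 (SE, limma adjusted p = 0.0200). Atp5o, the oligomycin sensitivity protein, had 62.1, 66.6 and 65.3 CPM in adult cortex, against 56.9, 60.1, 66.7 and 54.5 CPM in embryonic cortex, a difference of 0.21 ± 0.09 (SE, limma adjusted p = 0.0482). In CPM adult replicate 1 of Atp5f1 lay inside the embryonic range, and embryonic replicate 3 of Atp5o lay above all adult samples. Both calls were lost after centring, at limma adjusted p values of 0.668 for Atp5f1 and 0.823 for Atp5o. The call of Atp5f1 was also lost without embryonic replicate 2, adult replicate 2 or adult replicate 3, and that of Atp5o without embryonic replicates 1, 2 or 4 or adult replicates 2 or 3. With voom on total reads both were lost, at limma adjusted p values of 0.126 for Atp5f1 and 0.212 for Atp5o, as they were without the trend in eBayes, at 0.0509 and 0.0970. The call of Atp5o was also lost with the replicate number as a block (limma adjusted p = 0.0908) and with no filter on low values (limma adjusted p = 0.0535).

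The small membrane subunits were mixed. Atp5j2, the f subunit, averaged 84.7 ± 6.63 CPM in adult and 57.9 ± 6.52 CPM in embryonic cortex (SD, n = 3 and n = 4), a difference of 0.63. Atp5k, the e subunit, averaged 19.8 ± 4.79 CPM in adult and 16.1 ± 1.95 CPM in embryonic cortex (SD, n = 3 and n = 4), a difference of 0.35 ± 0.14 (SE, limma adjusted p = 0.0418) that was lost without adult replicate 3, at 0.17 (limma adjusted p = 0.258), without embryonic replicates 1, 2 or 4, and with the replicate number as a block (limma adjusted p = 0.0590). It was also lost after centring, at 0.17 (limma adjusted p = 0.308), with voom on total reads (limma adjusted p = 0.0987), without the trend in eBayes (limma adjusted p = 0.115) and with no filter on low values (limma adjusted p = 0.0559). Atp5l, the g subunit, had 53.2, 61.4 and 61.2 CPM in adult cortex, against 51.4, 48.1, 61.6 and 61.5 CPM in embryonic cortex, a difference of 0.16 ± 0.10 (SE, limma adjusted p = 0.169). Its groups overlapped, and Atp5l2, which RefSeq lists as a pseudogene, had nearly the same values, 50.2, 61 and 61.2 CPM in adult cortex, against 52.5, 47.7, 62.5 and 60.5 CPM in embryonic cortex, a difference of 0.13 ± 0.11 (SE, limma adjusted p = 0.302), so reads of the pair may be shared.

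Of the 5 genes that match by symbol only, 2 rose. Atp5s, now named Dmac2l and known as coupling factor B, had 11, 9.07 and 10.3 CPM in adult cortex, against 4.07, 3.28, 4.8 and 4.81 CPM in embryonic cortex, a difference of 1.24 ± 0.14 (SE, limma adjusted p = 2.29e-06). Atp5sl, now named Dmac2, a complex I assembly factor, had 35.4, 31.6 and 31 CPM in adult cortex, against 17.1, 15.7, 16.2 and 14.6 CPM in embryonic cortex, a difference of 1.08 ± 0.09 (SE, limma adjusted p = 1.22e-07). Both groups were clearly apart. Cox4nb, now named Emc8, is a subunit of a membrane complex of the endoplasmic reticulum and had 69.4, 67.4 and 71.5 CPM in adult cortex, against 65.9, 70.8, 66.7 and 67.4 CPM in embryonic cortex, a difference of 0.12 ± 0.07 (SE, limma adjusted p = 0.147). In CPM the groups of Cox4nb overlapped. Cox7a2l, which links complexes III and IV in supercomplexes, had 101, 102 and 104 CPM in adult cortex, against 98.6, 104, 114 and 99.6 CPM in embryonic cortex, a difference of 0.06 ± 0.08 (SE, limma adjusted p = 0.468). Against Cox7a2, whose level rose, its log2 ratio was 0.22, 0.14 and 0.05 in adult and 0.60, 0.68, 0.56 and 0.48 in embryonic samples, a difference of -0.44 with no overlap.

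Per length of transcript, the order of the subunits was similar in the groups. In CPM per kilobase of the shortest principal transcript, Cox8a stood at 532 in adult and 155 in embryonic cortex, Cox4i1 at 477 in adult and 257 in embryonic cortex and Atp5b at 459 in adult and 333 in embryonic cortex. Cox8a was thus the highest of 73 subunit genes in adult cortex, while Atp5b was the highest in embryonic cortex. At the low end, Sdhc stood at 16.6 in adult and 14.3 in embryonic cortex and Ndufs4 at 21.8 in adult and 22.3 in embryonic cortex. The median per kilobase in adult cortex was 184 for the general forms of complex IV, 122 for complex V, 115 for complex III, 82.3 for complex I and 73.2 for complex II. In embryonic cortex it was 106 for the general forms of complex IV, 97.8 for complex V, 62.3 for complex III, 48.0 for complex I and 48.8 for complex II. Across the 73 genes the adult and embryonic levels had a Spearman correlation of 0.907, a description over genes that share the same libraries.

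The samples of a group were not equal in these genes. Embryonic replicate 3 was the highest of its group in 68 of the 84 members, with a median deviation of 0.14 from the group mean, against 0.01 over all genes tested. Adult replicate 1 was the lowest of its group in 49 of the 84, with a median deviation of -0.07, against a value near 0 over all genes. Over the 73 subunit genes, which share their libraries, the deviation of embryonic replicate 3 had a Spearman correlation of -0.30 with transcript length. That of adult replicate 2 was also -0.30, and those of adult replicate 1 and embryonic replicate 4 were 0.20 and 0.26. The difference between adult and embryonic cortex had a correlation of -0.03 with transcript length. Without embryonic replicate 3 the median difference was 0.69 and 74 members rose, and without adult replicate 1 it was 0.67, also with 74.

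**Figure D4:**
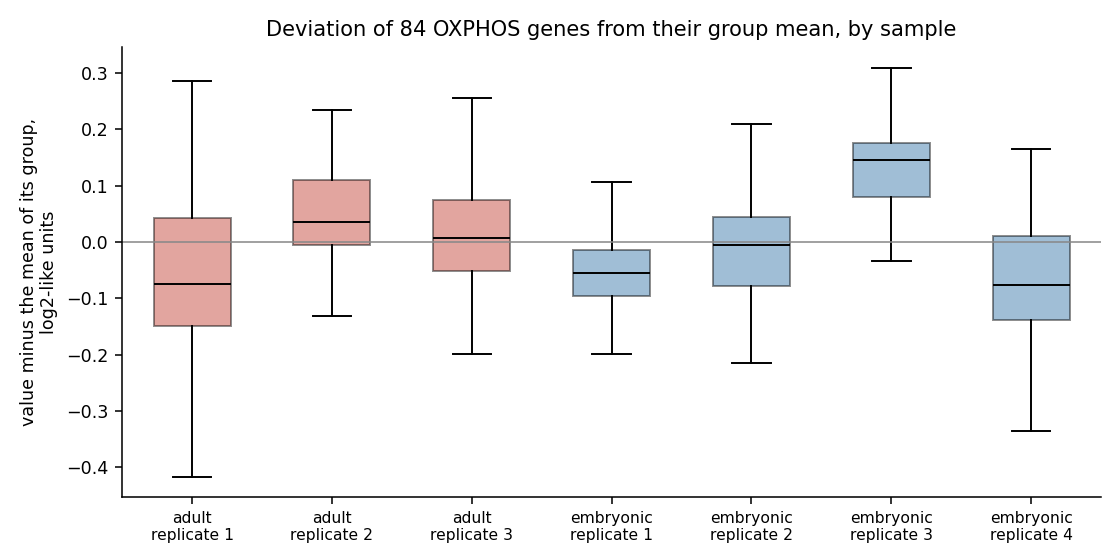
Deviation of 84 members from the mean of their own group in each of the 3 adult and 4 embryonic samples, in log2-like units. Boxes span the quartiles with the median as a line, and whiskers reach the last value within 1.5 box lengths. Embryonic replicate 3 has a median of 0.14 and adult replicate 1 a median of -0.07.

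Scaling moved the level of all members together. Centring each sample on its median over the genes tested shifted all differences down by 0.18. The median difference of the members was then 0.46, and 67 of 84 rose, with none lower. The 8 members whose differences turned negative were among the 10 that had not passed. Scaled to total reads, as in the CPM values, the median was 0.57 and 71 rose. On that scale 4 members that did not pass, Ndufs4, Atp5e, Atp5g2 and Cox7a2l, had a lower mean CPM in adult cortex although their fitted difference was above 0.

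Reads could be shared with other genes. A transcript elsewhere in the genome matched 13 members at 97% or more over at least 200 bases, and 24 members overlapped another gene. Of the 52 tested members with neither on record, 46 rose, with a median difference of 0.68. The 52 include Atp5l2, which was not searched for copies and which is itself listed as a copy of Atp5l. The 13 members with a copy had a median difference of 0.75, with 11 that rose. Some copies had levels near those of the member, such as Gm10250 with 76.7 CPM in adult and 47.7 CPM in embryonic cortex beside Atp5h. Some stood above the member. Gm12251 had 61.9 CPM in adult and 36.5 CPM in embryonic cortex, beside 41.9 and 29.4 CPM for Ndufs3. BC002163 had 73.1 and 42.4 CPM, beside 46.6 and 25.2 CPM for Ndufs5. Gm10221 had 102 and 98.1 CPM, beside 58.6 and 55.7 CPM for Atp5l. Others were far lower: Gm10039 had 1.24 CPM in adult and 0.608 CPM in embryonic cortex, beside 65.9 ± 5.84 CPM in adult and 34.8 ± 1.61 CPM in embryonic cortex for Atp5g1 (SD, n = 3 and n = 4). Likewise Gm5457, a copy of Uqcrb, had 3.73 CPM in adult and 1.75 CPM in embryonic cortex. Counts of such members are uncertain.

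Other genes of the pathway were counted in the same fit, in which 35.8% of all genes tested were called higher and 33.9% lower in adult cortex. Of 16 genes of pyruvate dehydrogenase and the TCA cycle, 15 rose and none fell, with a median difference of 1.02. Idh3a, the catalytic alpha subunit of isocitrate dehydrogenase, had the largest difference, 1.49, with 174 ± 14.4 CPM in adult and 65.3 ± 3.56 CPM in embryonic cortex (SD, n = 3 and n = 4), while Dlst averaged 119.5 ± 11.3 CPM in adult and 126 ± 7.57 CPM in embryonic cortex and did not pass. Of the electron carriers, Cycs, which encodes cytochrome c, averaged 114 ± 12.1 CPM in adult and 60.1 ± 5.1 CPM in embryonic cortex, a difference of 0.99 ± 0.09 (SE, limma adjusted p = 2.61e-07). Cyc1, the cytochrome c1 of complex III, which the symbol rule does not reach, differed by 0.57, and the carrier protein Ndufab1 by 0.46.

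Assembly factors moved in both directions. For complex I, 6 of 15 rose, or 40%, which is near the 35.8% of all genes tested, and 3 fell, from Tmem126b at 1.02 to Timm21 at -0.91. For complex IV, 10 of 20 tested rose and 4 fell, from the copper chaperone Cox17 at 1.28 to Coa7 at -0.87. For complex III, 5 of 6 rose, with Ttc19 the largest at 1.09. For complex II, 3 of 4 rose, with Sdhaf3 the largest at 0.62. For complex V, 2 of 3 rose, and Atpaf1, a chaperone of the F1 part, averaged 42.7 ± 2.73 CPM in adult and 12.7 ± 1.88 CPM in embryonic cortex, a difference of 1.79 ± 0.11 (SE, limma adjusted p = 3.14e-09). The inhibitor of the ATP synthase, Atpif1, fell to 91.6, 92.8 and 80.7 CPM in adult, against 113, 108, 126 and 116 CPM in embryonic cortex, a difference of -0.30 ± 0.08 (SE, limma adjusted p = 0.00496). Usmg5, a small subunit of the synthase that the symbol rule does not reach, differed by 0.79.

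Of 13 genes that copy and transcribe mitochondrial DNA, 7 fell and 2 rose, with a median difference of -0.29. Polg2, the accessory subunit of the mitochondrial DNA polymerase, had the most negative difference, -1.15, and Mterfd3 the largest, 0.33. Tfam, which packages mitochondrial DNA, had 28.1, 25.4 and 27.6 CPM in adult cortex, against 36.3, 35.3, 33.4 and 36.6 CPM in embryonic cortex, a difference of -0.29 ± 0.08 (SE, limma adjusted p = 0.00471). Of 76 mitochondrial ribosomal protein genes, 29 rose, or 38.2%, also near the share of all genes tested, and 10 fell, or 13.2%, with a median of 0.06, from Mrpl48 at 1.14 to Mrpl52 at -1.11. Of 22 import genes, 11 rose and 3 fell, with a median of 0.26, from Timm17a at 1.35 to Tomm20l at -1.45. The 13 subunit genes encoded by mitochondrial DNA are listed at 0 in every sample and cannot be compared.

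**Figure D5:**
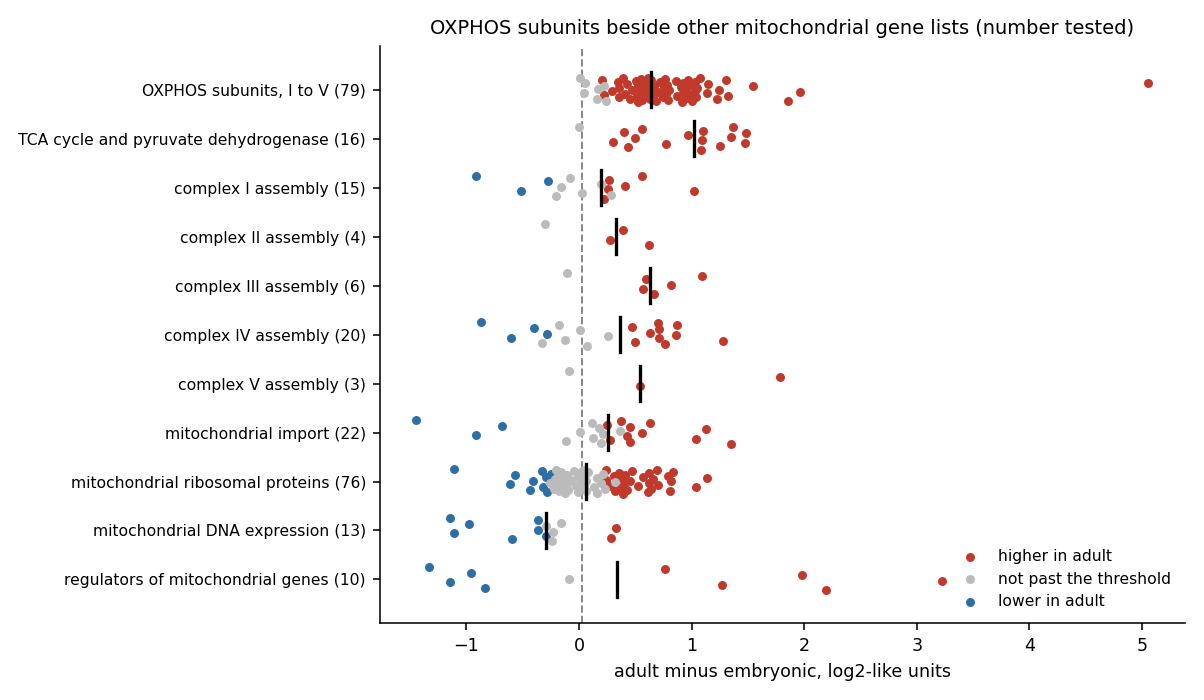
Difference per gene in log2-like units for the OXPHOS subunits and 10 other lists, 3 adult against 4 embryonic samples. Red points are higher and blue points lower in adult cortex, grey points did not pass the threshold, black bars are medians and the dashed line is the median of all genes tested. The medians run from 1.02 for the TCA cycle list to -0.29 for mitochondrial DNA expression.

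Over all these lists other than the subunits, 93 genes rose and 32 fell, against 72 and 57 after centring on the sample medians. Centring moved all genes tested in the same way. Of the 22828 genes, 8180 were called higher and 7736 lower, against 7001 and 9047 after centring. The regulators known to act on OXPHOS genes included 5 that rose and 4 that fell. The coactivator Ppargc1a had 59.2, 49.5 and 62.5 CPM in adult cortex, against 13.3, 13.6, 14.1 and 18 CPM in embryonic cortex, a difference of 1.98 ± 0.11 (SE, limma adjusted p = 1.82e-09). Its relative Ppargc1b had 11.4, 13.7 and 10.6 CPM in adult cortex, against 0.867, 1.02, 0.8 and 1.16 CPM in embryonic cortex, a difference of 3.23 ± 0.16 (SE, limma adjusted p = 3.18e-10). The estrogen-related receptors Esrra, Esrrb and Esrrg differed by 0.77, 2.19 and 1.27, and all 3 rose. Nrf1, whose motif was searched above, had 16.7, 16.9 and 21.1 CPM in adult cortex, against 52.5, 51.8, 47.8 and 46.8 CPM in embryonic cortex, a difference of -1.33 ± 0.10 (SE, limma adjusted p = 2.42e-08). The ETS factor gene Gabpa and its partner Gabpb1 differed by -0.84 and -1.14, the coactivator gene Pprc1 by -0.96, and all 3 fell. Yy1 differed by -0.09 and did not pass. Gabpa overlaps Atp5j on the opposite strand, so their reads may be shared where the counting did not use strand.

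Markers of other cell types mostly rose, but globin genes fell and neuronal markers went both ways. Beside these counts, 35.8% of all genes tested were called higher and 33.9% lower. All 9 choroid plexus markers rose, with summed levels of 1066 to 1288 CPM in adult, against 8.19 to 12.1 CPM in embryonic samples, and all 7 meningeal markers rose, with sums of 168 to 246 CPM in adult, against 46 to 57.6 CPM in embryonic samples. The 7 astrocyte markers rose, with sums of 4448 to 5380.1 CPM in adult, against 286 to 306 CPM in embryonic samples, and the 6 oligodendrocyte markers rose, with sums of 3862 to 6914 CPM in adult, against 48.7 to 51.7 CPM in embryonic samples. Of 7 endothelial markers 5 rose and none fell, of 7 markers of vascular smooth muscle 5 rose and 1 fell, and the 3 ependymal markers tested rose. The 4 globin genes among 6 erythroid markers fell, with sums of 365 to 919 CPM in adult, against 1012 to 1539 CPM in embryonic samples. Of 6 neuronal markers found, Slc17a7, Snap25 and Syt1 rose and Neurod6, Tubb3 and Map2 fell. The part of these cells in the OXPHOS results was not tested.

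Exon usage was compared for 404 exons of 75 members. The diffSplice test of limma, which compares the change of 1 exon with that of the remaining exons, called 23 exons of 16 members, or 5.69%, against 4.87% of all 86199 exons tested. The share of called exons was thus close to the background. Of the 23, 12 held a smaller and 11 a larger share of their gene in adult cortex, and in 8 the groups did not overlap. The most 5′ exon of the gene in the table made up 11 of the 23. Each of the 75 members has 1 such exon among the 404, and the like share over all genes is not given. Exons are named by their position in mm9. The test was run on the deposited score, which is not exon expression: it stands for a whole number, read here as the level of the gene over that of the exon. A share below is 100 divided by that whole number, so it moves in steps, from 12.5% to 14.3% with none between. It is also not an exact percentage of the reads of the gene, since the inverse whole numbers of a gene summed to a median of 1.18 to 1.21 per sample over 5955 genes, and not to 1.

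The exons with the largest shift to a smaller adult share were in Ndufa13, Ndufs8 and Atp5o. In Ndufa13, the most 5′ exon, at position 72425780 of chromosome 8, held 1.14%, 1.67% and 1.56% in adult samples, against 7.14%, 6.25%, 6.25% and 5.26% in embryonic samples (diffSplice adjusted p = 3.88e-14). In Ndufs8, the most 5′ exon, at position 3912467 of chromosome 19, held 5.56%, 5.88% and 5% in adult samples, against 11.1%, 14.3%, 14.3% and 12.5% in embryonic samples (diffSplice adjusted p = 7.18e-12). In Atp5o, exon 2 of 7, at position 91930599 of chromosome 16, held 2.13%, 2.5% and 2.44% in adult samples, against 5.56%, 4.17%, 4% and 3.7% in embryonic samples (diffSplice adjusted p = 1.07e-05). None of the 3 overlapped between the groups, and all 3 stayed called under every setting tried. Tssk6, a testis kinase gene that overlaps Ndufa13 on the opposite strand, had 0.778 CPM in adult and 1.76 CPM in embryonic cortex, and whether its reads enter that exon was not tested. Donson, which overlaps Atp5o on the same strand, had 13.1 CPM in adult and 20.7 CPM in embryonic cortex. Gm5436, a near-identical copy of Atp5o, had 82.9 CPM in adult and 82.4 CPM in embryonic cortex. Whether reads of either enter the Atp5o exon was not tested.

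The largest shifts to a larger adult share were less clear. They were 2 further exons of Ndufa13, at positions 72419141 and 72425441 of chromosome 8, and the most 5′ exon of Cox6a1. The exon of Cox6a1, at position 115798848 of chromosome 5, held 7.14%, 7.69% and 4.76% in adult samples, against 5%, 4%, 4.35% and 3.7% in embryonic samples (diffSplice adjusted p = 0.0223), and the groups overlapped. This call was lost without adult replicates 1 or 2, without embryonic replicates 2, 3 or 4 (diffSplice adjusted p = 0.0709 to 0.188) and with the replicate number as a block (diffSplice adjusted p = 0.149). The shares of the 2 Ndufa13 exons also overlapped. The count of called exons depended on single libraries: it was 9 without adult replicate 1 or 2, 48 without adult replicate 3, and 13, 12 and 15 without embryonic replicates 2, 3 and 4.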

How the data were processed

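The authors deposited a gene table and an exon table with 1 column for each of 7 samples. The submitters' processing notes give the build as mm9 and list, with no role for any of them, SAMtools 0.1.7a, HTSeq 0.5.3p3, Bowtie 0.12.7.0, TopHat 1.0.13 and CASAVA 1.7.1. Not given in the sources used here are the tool behind the variance stabilization and whether counting used strand.

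The deposited gene values behave as log2 levels after variance stabilization, and genes without reads share 1 lowest value per sample. The deposited exon values are a score, called 1/ratio per the file headers. From the values it is near the reads of the gene divided by those of the exon, and a share is 100 divided by it, though the inverse values of a gene sum to more than 1. Reads per gene were recovered from the deposited values: above the lowest 30 steps and up to 20000 reads, 100% of values in every sample came out within 0.1 of a whole number. CPM, per 1000000 recovered reads in genes, describe levels only. Few reads limit the precision of the tissue forms, and floors cover counting error only.

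Groups were compared with limma 3.58.1 in R 4.3.3 (lmFit, eBayes with a mean trend, two-sided, Benjamini-Hochberg over 22828 genes) on the deposited values of the 7 samples. A gene was tested if at most 3 of 7 samples held the lowest value. Exons were tested with diffSplice, and isoform ratios with exact permutation over 35 arrangements (SciPy 1.17.1). Alternatives were no filter, centring, voom on recovered reads, eBayes without the trend, a replicate block and leaving out each sample. Scripts were tested on simulated data. Samples of a group differed by more than sampling noise (chi-square over degrees of freedom 5.11 to 19.0). The labels do not say that samples are separate animals, so a p-value here reflects only how these samples vary, and that variation may be technical.

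Members and lists were chosen with earlier results of these data known. Named by rule were, per complex, the called members with the 2 largest and the 2 smallest differences, every member of an isoform pair, every member not called or not tested, from each list the called gene with the largest difference in each direction, and the 3 called exons with the largest differences in each direction. Other genes named by their role were chosen after their values were seen. Transcript lengths (shortest principal transcript), overlaps and copies come from GENCODE M21, with BLAST 2.17.0, and promoters and current symbols from RefSeq.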

Additional observations from a re-analysis of the deposited data

Results flagged for a closer look

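Among the 84 members, the 4 embryonic values were searched for a sample whose gap to the nearest other sample was a large part of the group's range. Chance flags about 1 in 20 groups of 4, and 2 members were found. In Atp5j2 embryonic replicate 3 was highest, at 67.7 CPM against 54.0 to 55.7 CPM in the other 3 samples, and the gap was 0.926 of the range. In Cox7b2 embryonic replicate 3 was highest, with 1 read against none in the other 3 samples, so the gap was 1 times the range.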

How the results depend on the processing

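No alternative called a member lower, and between 67 and 74 were called higher. The median difference of the members, 0.64, was 0.46 when centred, 0.57 with voom on total reads and 0.60 to 0.69 without single samples. Of the other lists, 57 genes were called lower when centred, against 32, and of all genes tested 9047, against 7736. Centred, Cox7a2l (-0.117), Cox4nb (-0.0609), Atp5e (-0.175), Atp5l (-0.0188), Atp5l2 (-0.0530), Ndufa7 (-0.00898), Ndufs4 (-0.133) and Atp5g2 (-0.126) turned negative, as did Cox7a2l (-0.0211), Atp5e (-0.0789), Ndufs4 (-0.0363) and Atp5g2 (-0.0287) with voom on total reads. None of these 8 had passed. Without single samples the difference of Atp5e ranged from -0.0743 to 0.112, that of Ndufs4 from -0.0196 to 0.0887 and that of Atp5g2 from -0.0275 to 0.134. The log2 ratio of Cox4i2 over Cox4i1 was -0.0518 with the deposited values and ranged from -0.0198 to 0.345 without single samples, and that of Cox8b over Cox8a was 1.75 with the deposited values. Without single samples, 9 to 48 exons were called. The cause of these shifts was not tested.

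Replicate numbers did not pair the samples: deviations of samples with the same number correlated at 0.0088, 0.0567 and 0.0405, and adult replicate 1 correlated best with embryonic replicate 4 (0.0617). With the replicate number as a block, which leaves embryonic replicate 4 without a partner, 72 members were called higher and none lower, with a median of 0.62, and 21 exons were called. Under the block Atp5e stood at -0.0743 and Atp5g2 at -0.0275.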
